A study of Mus musculus with 18 samples.

Results

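The genes described here encode the synaptic vesicle and its release machinery. They are 48 named genes of the 28852 in the deposited table, and all 48 were found by symbol in it. They were measured by RNA sequencing in cerebral cortex of mice, in 18 libraries that the labels place in 6 groups of 3. The groups are wild type mice and mice with Alg13 knocked out, each taken at postnatal days 1, 7 and 30. Alg13 encodes a subunit of an early enzyme of protein N-glycosylation, and the title of the series places its question in the postnatal development of cortical GABAergic interneurons. The sources used here do not give the strain, the sex, the kind of Alg13 allele or whether a library came from 1 animal. P-values therefore measure the spread between these libraries, which may be technical.

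At a synapse, vesicles are filled with transmitter, docked at the active zone of the terminal, primed, and fused with the membrane when calcium enters. Fusion is driven by SNARE proteins, which sit on the vesicle and on the terminal membrane and zip together. Several synaptotagmins and Doc2 proteins sense the calcium, complexins clamp and promote fusion, and scaffold proteins such as RIM, Munc13, Bassoon and Piccolo hold the vesicles near calcium channels. The membrane is then taken back by endocytosis with dynamin and its partners. In rodent cortex most synapses form in the first weeks after birth. SV2 proteins, synaptophysin and synaptotagmin 1 carry N-linked sugars, but the data here are RNA levels and do not measure sugars.

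Promoters of 4 of the 48 genes are shown because their windows hold a match to 1 of a pair of elements long studied in neuronal genes. The windows come from RefSeq on build GRCm38.p6 and run from 250 bases before to 50 bases after the annotated start. The submitters' processing notes name GRCm39, so these coordinates belong to GRCm38.p6 alone. Windows were matched by symbol for 37 of the 48 genes, and 49 windows were found. Syn3, Syngr3, Syt4, Syt5, Syt7, Syt12, Doc2a, Doc2b, Vamp2, Snap25 and Rims2 had none. The first motif was the left part of the RE1 element, TTCAGCACC, to which the repressor REST binds, and the second was the cAMP response element, TGACGTCA. Both strands were searched and the motifs did not overlap. The first was in 3 genes (Syn1, Unc13a and Ppfia3) and in 122 of 32851 mouse windows, or 0.371%. The second was in Syn1 and Sh3gl2 and in 588 of the 32851 windows, or 1.79%. Capitals mark the matches. In Syn1 the RE1 match starts at -232 from the start site and the cAMP response element at -159. The matches start at +23 in Unc13a, where it lies on the opposite strand, at -46 in Ppfia3 and at -37 in Sh3gl2. A match is a description of letters and not a binding site.
Syn1, chrX:20920869-20921168, minus strand: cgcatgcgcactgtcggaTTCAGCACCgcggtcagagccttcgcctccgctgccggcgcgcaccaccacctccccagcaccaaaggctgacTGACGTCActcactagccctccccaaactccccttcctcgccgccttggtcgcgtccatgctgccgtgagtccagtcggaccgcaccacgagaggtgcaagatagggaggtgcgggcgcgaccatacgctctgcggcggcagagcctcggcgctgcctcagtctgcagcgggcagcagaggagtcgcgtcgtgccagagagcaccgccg
Unc13a, chr8:71671708-71672007, minus strand: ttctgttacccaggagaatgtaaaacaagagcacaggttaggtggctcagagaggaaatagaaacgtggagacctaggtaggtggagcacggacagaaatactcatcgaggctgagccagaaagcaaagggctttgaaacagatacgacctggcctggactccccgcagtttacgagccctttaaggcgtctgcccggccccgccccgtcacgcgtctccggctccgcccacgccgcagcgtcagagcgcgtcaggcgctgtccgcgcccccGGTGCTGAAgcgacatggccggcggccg
Ppfia3, chr7:45366970-45367269, minus strand: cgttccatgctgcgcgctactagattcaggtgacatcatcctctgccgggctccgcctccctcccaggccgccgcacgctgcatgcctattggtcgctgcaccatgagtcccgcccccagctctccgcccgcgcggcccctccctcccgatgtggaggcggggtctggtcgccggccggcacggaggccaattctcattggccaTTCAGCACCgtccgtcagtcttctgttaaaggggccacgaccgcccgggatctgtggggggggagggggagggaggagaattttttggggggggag
Sh3gl2, chr4:85205206-85205505, plus strand: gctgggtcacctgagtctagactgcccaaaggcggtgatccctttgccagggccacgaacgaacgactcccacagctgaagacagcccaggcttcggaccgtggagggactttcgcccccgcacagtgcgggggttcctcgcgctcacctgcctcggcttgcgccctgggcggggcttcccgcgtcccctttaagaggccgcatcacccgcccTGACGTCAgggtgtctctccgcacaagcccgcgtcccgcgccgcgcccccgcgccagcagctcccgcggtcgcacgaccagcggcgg
All 4 of these genes were higher at day 7 than at day 1 in both genotypes, as were most members without a match.

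Values are FPKM, fragments scaled by transcript length and by library total. The table holds no read counts, so the depth is unknown, and the total FPKM ran from 313919 to 394975. Tests used limma on log2(FPKM + 1). Each change is a log2 difference on that scale ± its SE, and adjusted p-values are two-sided and adjusted by Benjamini-Hochberg over the 13347 genes that reached FPKM 1 in 3 or more libraries. A call is an adjusted p under 0.05, and "rose" and "fell" mean calls. All 48 members passed that filter. The cortex markers Slc17a7 and Rbfox3 stood at 412 ± 24.2 and 11.6 ± 0.603 FPKM (SD, n = 3) in wild type at day 30. The targeted gene Alg13 was at 2.67 ± 0.676 FPKM in wild type and 2.04 ± 0.862 in libraries labelled knockout at day 1, at 1.80 ± 0.228 and 2.35 ± 0.423 at day 7, and at 1.00 ± 0.191 and 1.45 ± 0.334 at day 30. None of these 3 differences was called (adjusted p = 0.38, 1.00 and 1.00), so the RNA level does not check the genotype labels. Knockout below means the libraries so labelled.

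Several libraries stand apart. In wild type day 1 replicate 3 the 7 salivary gland markers summed to 30700 FPKM and the 5 brown fat markers to 1900, against at most 13.1 and 2.93 in the other libraries. The 48 genes made up 0.261% of total FPKM in that library, against 0.475% and 0.531% in its fellow replicates and 0.496% to 0.564% in knockout at day 1. It was the lowest of the 6 day 1 libraries for 36 of the 48 genes. Wild type day 1 replicate 2 held Xist at 157 FPKM and the Y-linked Ddx3y at 0.0309, while Xist was found together with Ddx3y in wild type day 1 replicate 3 (39.4 and 11.7 FPKM), knockout day 1 replicate 3 (23.8 and 2.77) and wild type day 30 replicate 2 (31.5 and 5.05). In the remaining libraries Xist was at 0.065 FPKM or less. Wild type day 7 replicate 3 was the lowest of its group for 34 of the 48 genes, which made up 0.968% of its total against 1.18% in each of the other 2, with Camk2a at 109 FPKM against 195 and 207 and the astrocyte transporter Slc1a2 at 51.2 against 124 and 124. Camk2a and Slc1a2 are single markers, and sums over marker lists went both ways in that library. Its excitatory neuron markers summed to 536 FPKM against 569 and 597, and its astrocyte markers to 255 against 325 and 331. Its pan-neuronal markers summed to 4530 FPKM against 3920 and 4030, and its interneuron markers to 172 against 138 and 145. In knockout day 7 replicate 3 the 4 choroid plexus markers summed to 139 FPKM, against 0.526 and 0.45. The heat map of all members shows these libraries beside the rest.

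**Figure D1:**
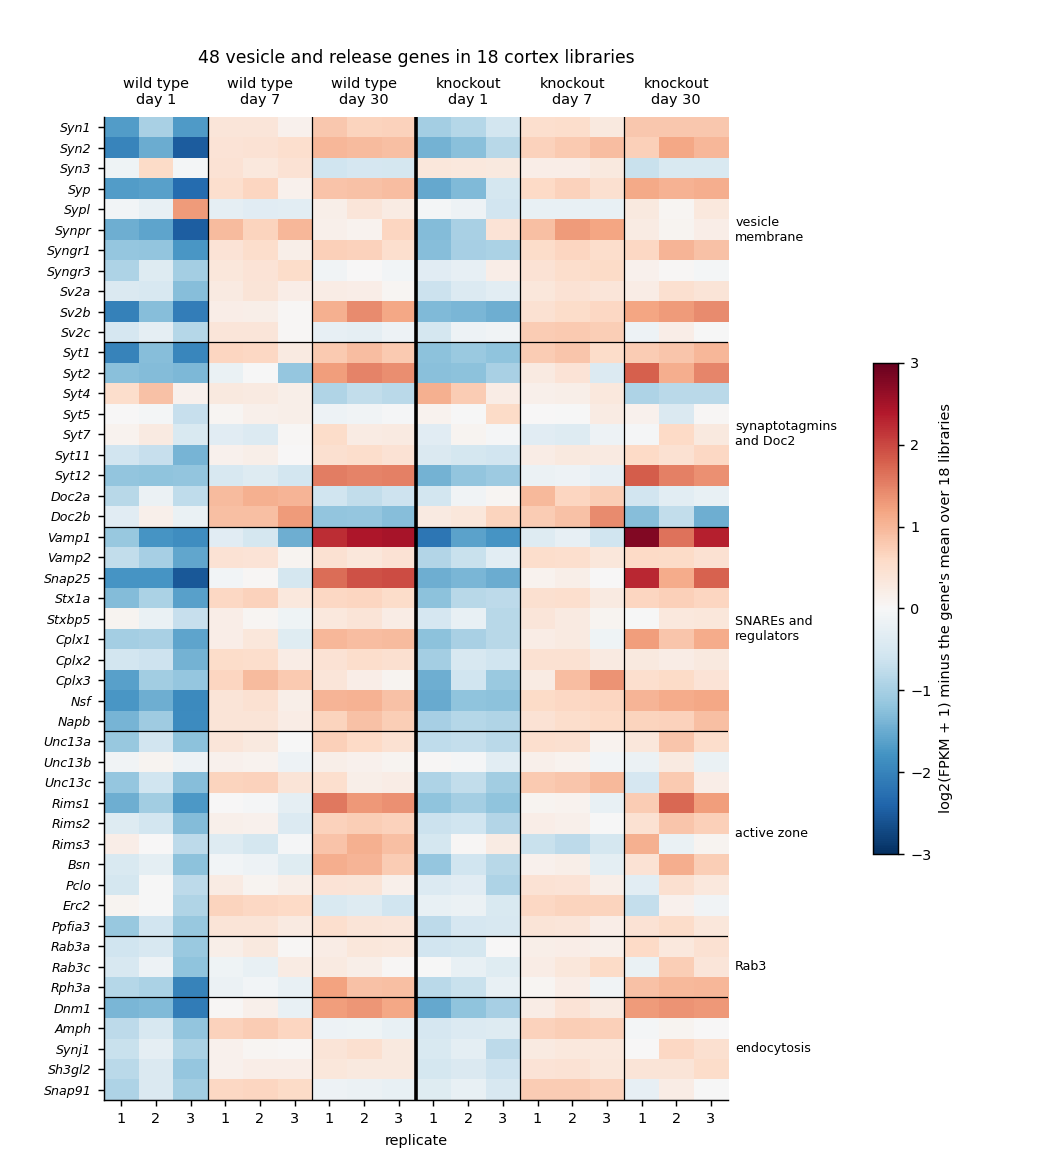
Each of the 48 genes (rows, by role) in each of the 18 libraries (columns, 3 replicates for each genotype and day). Colour is log2(FPKM + 1) minus that gene's mean over the 18 libraries. Most day 1 cells are blue (below the gene's mean), wild type day 1 replicate 3 is the lowest of the 6 day 1 libraries for 36 genes, and Vamp1 and Snap25 are the deepest red at day 30.

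The clearest pattern was the rise between days 1 and 7. In wild type 38 of the 48 genes rose and none fell, against 20.9% of all genes tested that rose and 28% that fell. The median change of the 48 was 1.18, and that of all genes tested was -0.0997. The wild type day 1 group includes replicate 3, with RNA of other tissues, which was the lowest of its group for 40 of the 48 genes. Sizes of change in wild type include that library. Leaving out 1 library at a time gave 35 to 41 members called at this step. In knockout, whose libraries are separate, 40 rose and 1 fell, against 19.3% and 29.4% of all genes, with a median of 1.04 against -0.0813. The change was above 0 for 44 of the 48 genes in wild type (43.3% of all genes) and for 43 in knockout (44.2%). The 38 genes that rose in wild type were all among the 40 that rose in knockout. The 3 libraries of day 7 lay wholly above the 3 of day 1 for 37 genes in wild type (22.2% of all genes) and for 41 in knockout (27%). Summed over the 48 genes, expression went from 1029 to 1671 FPKM in the wild type day 1 libraries to 3226 to 3925 at day 7. Fewer cells of a type and less RNA per cell cannot be told apart in these bulk samples.

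The step from day 7 to day 30 was mixed. In wild type 17 genes rose and 9 fell, against 20.8% and 29.6% of all genes (50.4% called in either direction). The difference was above 0 for 34 of the 48 genes and for 44.2% of all genes. The day 30 libraries lay wholly above those of day 7 for 25 genes (31.9% of all genes) and wholly below for 12 (42.2%). The median change was 0.272 for the 48 genes and -0.0818 for all genes. In knockout 14 rose and 11 fell, against 15.9% and 22% of all genes, with a median of 0.144 against -0.0545. Of the genes called in each genotype, 14 rose in both (all 14 of knockout and 14 of the 17 of wild type) and 9 fell in both (all 9 of wild type and 9 of the 11 of knockout), and none went in opposite directions. The summed expression was 5016 to 5198 FPKM in wild type at day 30. The steps share the day 7 libraries, so their values are set side by side below and are not independent of each other.

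Markers of cell types moved over the same ages. All 10 pan-neuronal markers were detected, and their sum ran from 2120 to 3530 FPKM in wild type at day 1, 3920 to 4530 at day 7 and 1120 to 1160 at day 30. Of these 10 markers, 6 rose and 1 fell by day 7. From day 7 to day 30, 2 rose and 5 fell, with changes from -3.71 to 1.36, so this sum does not describe the list. The 8 excitatory neuron markers summed to 460 to 760, 536 to 597 and 1470 to 1550 FPKM, the 8 interneuron markers to 55.4 to 143, 138 to 172 and 261 to 301, the 6 astrocyte markers to 38.7 to 71.4, 255 to 331 and 702 to 803, and the 6 oligodendrocyte and myelin markers to 8.78 to 10.5, 30.2 to 52.7 and 582 to 865. Of the 8 excitatory markers 2 rose and 5 fell at each step in wild type (medians -0.978 and -0.587), so their sum does not describe the list. Of the 8 interneuron markers 4 rose and 2 fell at each step. Of the 6 astrocyte markers 6 rose by day 7, and 3 rose and 1 fell by day 30. Of the 6 oligodendrocyte and myelin markers 4 rose by day 7 and 6 by day 30. No marker in these lists was at 0 in all libraries. The part of these shifts in the courses of the 48 genes was not tested.

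**Figure D2:**
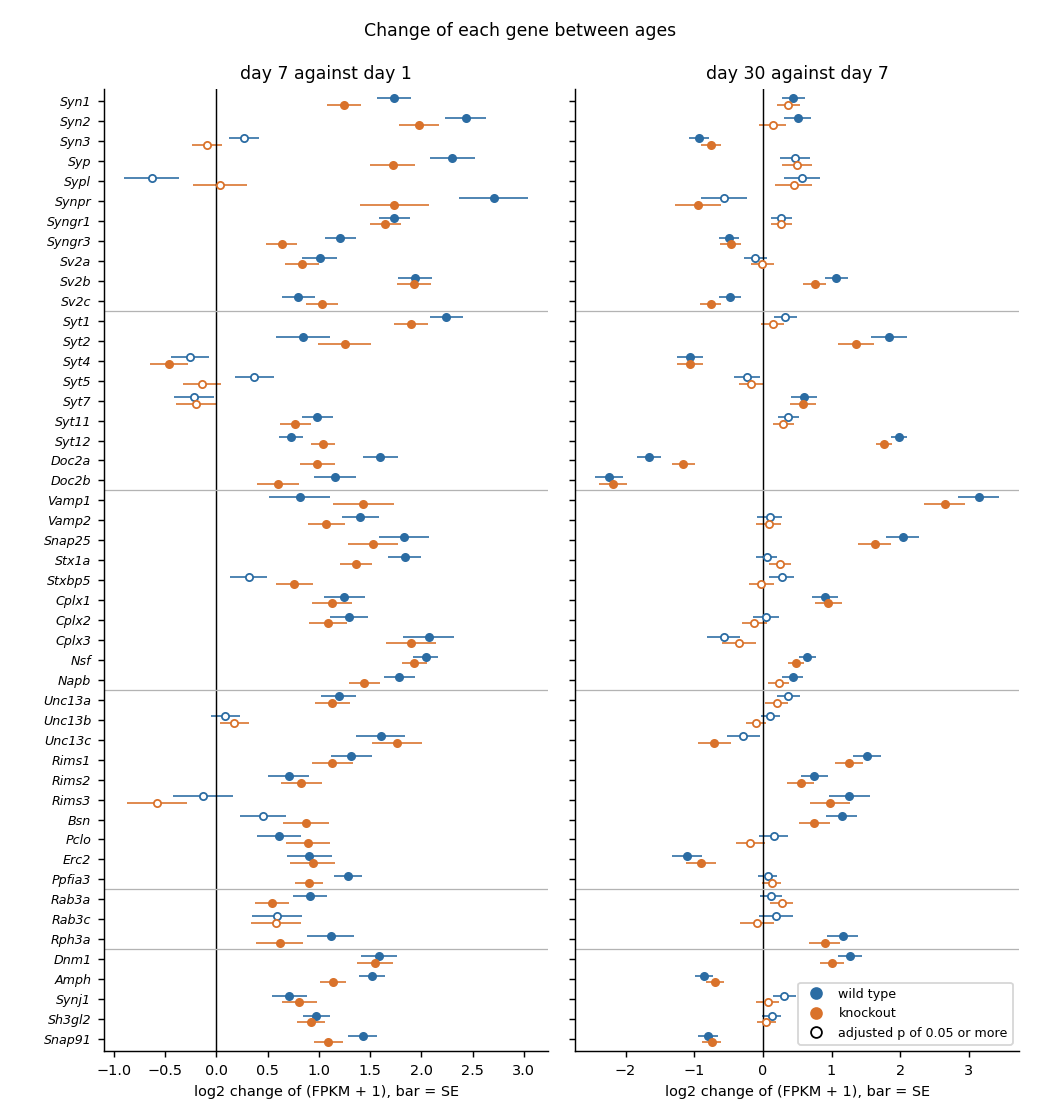
Log2 change of FPKM + 1 for each gene between ages (left, day 7 against day 1; right, day 30 against day 7), with wild type in blue and knockout in orange, SE as bars, and open symbols where adjusted p was 0.05 or more. In the left panel most points lie right of 0, and in the right panel Vamp1, Snap25 and Syt12 lie far to the right and Doc2a and Doc2b far to the left.

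Proteins of the vesicle membrane made up 11 of the genes, and 9 of them rose by day 7 in each genotype. The synapsins coat vesicles and hold them in clusters. Syn1 was at 33.9, 56.3 and 33.5 FPKM in the 3 wild type libraries at day 1, at 144, 142 and 121 at day 7 and at 195, 176 and 180.3 at day 30. It rose at both steps in wild type (1.73 ± 0.17, adjusted p = 9.03e-07, and 0.44 ± 0.17, adjusted p = 0.0368). Syn2 was at 7.80, 11.3 and 5.17 FPKM at day 1, 44.8, 45.7 and 48 at day 7 and 68.3, 65.9 and 63.9 at day 30, with no overlap between ages. Its day 7 rise was the largest among vesicle membrane genes in knockout (1.98 ± 0.20, adjusted p = 1.34e-06). Syn3 took another course. It was at 1.03, 2.31 and 1.13 FPKM at day 1, 2.01, 1.77 and 2.02 at day 7 and 0.485, 0.578 and 0.544 at day 30 in wild type, and fell at the second step (-0.93 ± 0.15, adjusted p = 6.75e-05). Its share of the summed synapsin FPKM went from 2.86% ± 0.442 to 0.215% ± 0.0280 (SD, n = 3). The gene Timp3 lies within Syn3 on the other strand, and the sources used here do not say whether counting used strand.

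Synaptophysin (Syp) is an abundant membrane protein of the vesicle. Its RNA was at 92.4, 95.6 and 59.8 FPKM at day 1 and 428, 468 and 326 at day 7 in wild type, and the groups did not overlap (2.30 ± 0.22, adjusted p = 8.22e-07). Synaptoporin (Synpr) is a relative of synaptophysin found in a subset of synapses. On the log2(FPKM + 1) scale it had the largest rise of all 48 genes from day 1 to day 7 in wild type. It went from 5.34, 4.83 and 2.12 to 32.5, 26.5 and 33.8 FPKM (2.71 ± 0.34, adjusted p = 1.04e-05). By ratio of mean FPKM the low genes Cplx3 (8.66) and Syt2 (8.58) were above it (7.55). Synpr then stood at 18.3, 17.8 and 26.2 FPKM at day 30 without a call (-0.57 ± 0.34, adjusted p = 0.172). In knockout it was at 31.7, 41 and 38.4 FPKM at day 7 and 19.7, 17.4 and 19.2 at day 30, a fall that was called (-0.94 ± 0.34, adjusted p = 0.0364), but the call was lost in 5 of 18 fits that each left out 1 library, with adjusted p up to 0.102, and in 5 of 13 other alternatives, with adjusted p up to 0.0895. All 3 day 30 libraries lay below all 3 day 7 libraries. Sypl, a synaptophysin-like protein found in many tissues, was at 3.90, 3.41 and 11.5 FPKM at day 1 in wild type. The high value of replicate 3 is the library with salivary gland and brown fat RNA, and Sypl is the 1 gene of the 48 for which that library was the highest of the 6 day 1 libraries. It was called at neither step in either genotype.

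The synaptogyrins are vesicle membrane proteins related to synaptophysin. Syngr1 rose by day 7 (1.74 ± 0.15, adjusted p = 3.72e-07) and made up 43.8% ± 5.20 of the pair's summed FPKM at day 1 and 65.9% ± 1.79 at day 30 in wild type. Syngr3 turned. Its values were 28.9, 41.8 and 26.6 FPKM at day 1, 70.3, 73.8 and 81 at day 7 and 51.4, 55.5 and 52 at day 30 in wild type, so that all day 7 libraries stood above those of both other ages. It rose and then fell in wild type (1.21 ± 0.15, adjusted p = 1.19e-05, and -0.49 ± 0.15, adjusted p = 0.0129) and in knockout (0.64 ± 0.15, adjusted p = 0.00254, and -0.47 ± 0.15, adjusted p = 0.0226). The second call was lost in 1 of 18 fits without 1 library in wild type (adjusted p up to 0.0538) and in 3 of 18 in knockout (adjusted p up to 0.0795). It was also lost under median ratio scaling in both genotypes and under quantile normalization in wild type, with adjusted p up to 0.089 in wild type and 0.0531 in knockout.

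The SV2 family of vesicle glycoproteins changed its composition with age. Sv2a, which binds the antiepileptic drug levetiracetam, was at 53.9, 52 and 29.7 FPKM at day 1, 88.1, 95.3 and 83.4 at day 7 and 85.9, 84.3 and 76.3 at day 30 in wild type. Sv2b went from 6.86, 12.4 and 6.67 to 36.2, 35.7 and 32 and then to 66.1, 84.8 and 71.5 FPKM, with a rise at each step (1.94 ± 0.17, adjusted p = 3.08e-07, and 1.07 ± 0.17, adjusted p = 6.12e-05). Its second rise was the largest of the vesicle membrane genes in both genotypes. Sv2b thus took 15.8% ± 4.18 of the summed SV2 FPKM at day 1, 27.2% ± 0.901 at day 7 and 46.7% ± 3.41 at day 30 (SD, n = 3). Sv2c, the least expressed of the family, was at 1.68, 2.18 and 1.11 FPKM at day 1, 3.90, 3.96 and 2.92 at day 7 and 2.21, 2.19 and 2.42 at day 30. It rose and then fell in wild type (0.80 ± 0.16, adjusted p = 0.000578, and -0.48 ± 0.16, adjusted p = 0.0176) and in knockout (1.03 ± 0.16, adjusted p = 6.13e-05, and -0.76 ± 0.16, adjusted p = 0.00123). In wild type the fall was lost without wild type day 7 replicate 1, wild type day 7 replicate 2 or wild type day 30 replicate 2, with adjusted p up to 0.0679.

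**Figure D3:**
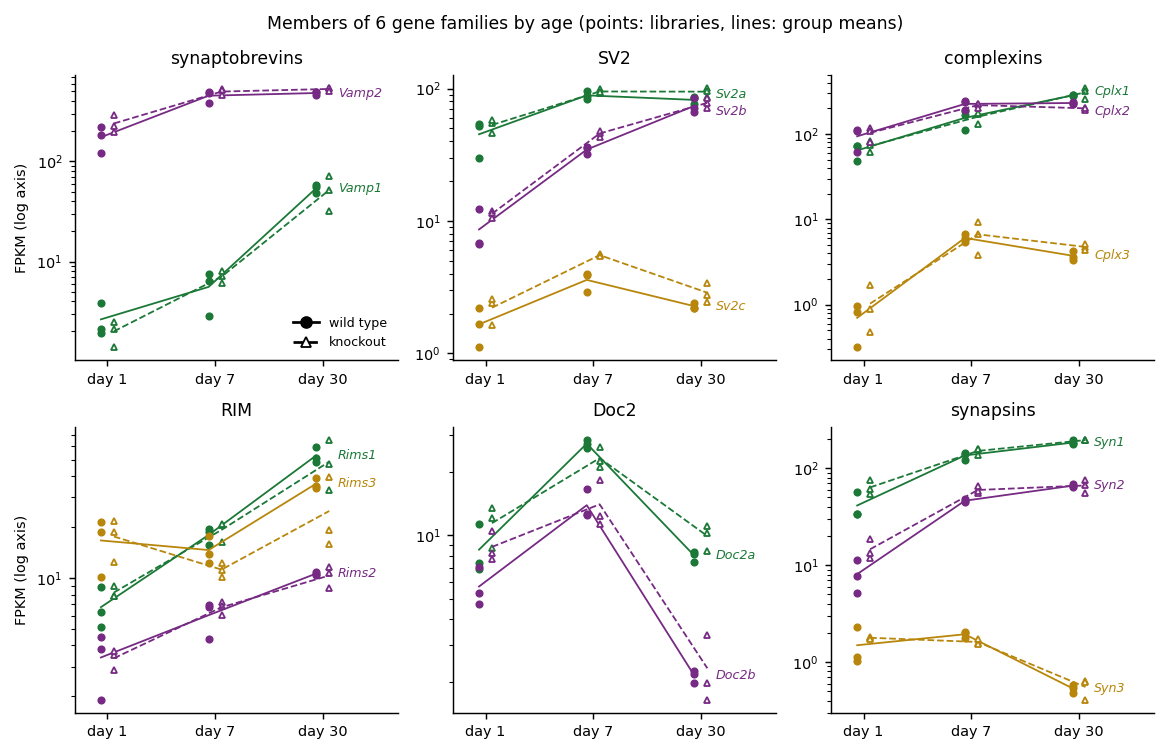
FPKM on a log axis at days 1, 7 and 30 for members of 6 families, with wild type as filled circles and solid lines and knockout as open triangles and dashed lines. Points are single libraries and lines join group means. Vamp1 and Sv2b climb towards their relatives by day 30, Doc2a and Doc2b peak at day 7, and Syn3 drops at day 30 while Syn1 and Syn2 do not.

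The synaptotagmins and Doc2 proteins, a family that holds the calcium sensors of release and relatives that do not bind calcium in the usual way, were 9 genes, of which 6 rose by day 7 in each genotype and 3 rose and 3 fell from day 7 to day 30. Syt1, the sensor for fast release in most forebrain neurons, was at 45.4, 75.7 and 46.8 FPKM at day 1 and 287, 284 and 221 at day 7 in wild type. In knockout it was at 78.5, 84.4 and 79.7 FPKM at day 1 and 315, 330.3 and 269.7 at day 7. On the log2(FPKM + 1) scale it had the largest day 7 rise of the group in wild type (2.25 ± 0.16, adjusted p = 8.89e-08) and in knockout (1.90 ± 0.16, adjusted p = 4.41e-07). By ratio of mean FPKM the low gene Syt2 was above Syt1, at 8.58 against 4.71 in wild type and 7.93 against 3.77 in knockout. From day 7 to day 30 Syt1 was not called. Syt2, the fast sensor of brainstem synapses and of parvalbumin interneurons, was almost absent at day 1, at 0.174, 0.130 and 0.101 FPKM, and stood at 1.46, 1.77 and 0.249 at day 7 and 5.69, 6.81 and 6.36 at day 30. Both steps were called (0.85 ± 0.26, adjusted p = 0.0134, and 1.83 ± 0.26, adjusted p = 2.81e-05). The third day 7 library was far below the other pair. In knockout the day 7 values were 2.39, 2.76 and 1.11 FPKM. The interneuron marker Pvalb went from 0.136 ± 0.0657 FPKM at day 7 to 54.5 ± 8.91 at day 30 in wild type (SD, n = 3), and its part in the course of Syt2 was not tested.

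Syt12, a synaptotagmin that does not bind calcium, had the largest second rise of the group in both genotypes on the log2(FPKM + 1) scale. By ratio of mean FPKM in wild type it stood at 5.38 and Syt2 at 5.42. Syt12 was at 2.01, 2.23 and 1.88 FPKM in wild type at day 7 and at 11.2, 10.7 and 11 at day 30, with narrow spread (1.98 ± 0.12, adjusted p = 3.09e-09). In knockout the values were 2.72, 2.80 and 2.57 and then 13.9, 11 and 9.92 FPKM (1.76 ± 0.12, adjusted p = 2.36e-08). Syt7, a slow sensor with high affinity for calcium, was called at the second step and not at the first (-0.22 ± 0.19, adjusted p = 0.357). It went from 15.6, 15 and 20.5 to 30.0, 24.2 and 24.6 FPKM in wild type (0.60 ± 0.19, adjusted p = 0.0156). The difference between the steps was not tested. Syt11, which like Syt4 lacks calcium binding of the usual kind, rose by day 7 (0.99 ± 0.15, adjusted p = 8.22e-05), and Syt5 was called at neither step in either genotype, with means of 43.7, 55.6 and 47.2 FPKM in wild type.

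Syt4 took the opposite course. It was at 75.7, 96.5 and 56.6 FPKM at day 1, 64, 63.4 and 58.9 at day 7 and 27.5, 30.9 and 29.5 at day 30 in wild type, where the second step was called (-1.06 ± 0.18, adjusted p = 0.000185). In knockout it was at 109, 89.5 and 60.5 FPKM at day 1, 57.9, 59 and 65.4 at day 7 and 26.8, 29.3 and 29.5 at day 30. There both steps were called (-0.46 ± 0.18, adjusted p = 0.0478, and -1.06 ± 0.18, adjusted p = 0.0003), but the first call was lost in 15 of 18 fits without 1 library, with adjusted p up to 0.247, and in 7 of 13 other alternatives, with adjusted p up to 0.224. Doc2a and Doc2b, sensors with high affinity for calcium that act in asynchronous and spontaneous release, peaked at day 7. Doc2a was at 6.94, 11.4 and 7.35 FPKM at day 1, 26.2, 28.6 and 27.4 at day 7 and 8.32, 7.50 and 8.17 at day 30 in wild type (1.60 ± 0.17, adjusted p = 2.24e-06, then -1.66 ± 0.17, adjusted p = 9.12e-07). Doc2b was at 4.73, 7.08 and 5.31 FPKM at day 1, 12.6, 12.6 and 16.6 at day 7 and 2.17, 2.26 and 1.99 at day 30 (1.16 ± 0.20, adjusted p = 0.000233, then -2.24 ± 0.20, adjusted p = 2.54e-07). That fall was the largest of the 48 genes in wild type, and the largest in knockout too (-2.19 ± 0.20, adjusted p = 7.95e-07). The rise of Doc2b by day 7 in knockout (0.60 ± 0.20, adjusted p = 0.0224) was lost in 3 of 18 fits without 1 library, with adjusted p up to 0.127, and without the filter, with adjusted p = 0.0521. In both genes every day 7 library of wild type stood above every library of the other ages.

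The SNARE proteins and their regulators were 10 genes, of which 9 rose by day 7 in wild type and all 10 in knockout. From day 7 to day 30, 5 rose in wild type, 4 rose in knockout and none fell. Vamp2, the main vesicle SNARE of the forebrain, had the highest FPKM of the 48 genes at days 1 and 7 in both genotypes. It was at 219, 182 and 123 FPKM at day 1, 492, 487 and 383 at day 7 and 495, 461 and 492 at day 30 in wild type. Vamp1, its relative best known from spinal cord and brainstem, was at 3.87, 2.12 and 1.94 FPKM at day 1, 7.45, 6.43 and 2.85 at day 7 and 48.4, 55.8 and 58.3 at day 30. The second step was the largest change of any of the 48 genes in wild type (3.14 ± 0.30, adjusted p = 3.76e-07) and in knockout (2.65 ± 0.30, adjusted p = 4.76e-06). Vamp1 took 1.18% ± 0.393 of the summed FPKM of the pair at day 7 and 10.1% ± 1.04 at day 30 in wild type (SD, n = 3).

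Snap25, the terminal membrane SNARE, became the highest of the 48 genes by day 30. Its values were 73.5, 72.6 and 42.3 FPKM at day 1, 238, 258 and 173 at day 7 and 801, 946 and 973 at day 30 in wild type, with no overlap between ages. Both steps rose (1.83 ± 0.24, adjusted p = 2.04e-05, and 2.04 ± 0.24, adjusted p = 4.87e-06). Stx1a, the syntaxin that pairs with it, rose by day 7 from 28.7, 37.2 and 22.8 to 112, 118 and 90.0 FPKM (1.84 ± 0.16, adjusted p = 2.93e-07) and was at 111, 113 and 106 FPKM at day 30 (0.054 ± 0.16, adjusted p = 0.794). Stxbp5 encodes tomosyn, which competes for SNARE assembly and restrains release. It was not called in wild type (0.31 ± 0.18, adjusted p = 0.163) and rose by day 7 in knockout (0.76 ± 0.18, adjusted p = 0.00257). The difference between those changes was itself not called (0.44 ± 0.26, adjusted p = 0.459).

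The complexins bind assembled SNAREs. Cplx1 was at 167, 186 and 113 FPKM at day 7 and 290.5, 280.2 and 285 at day 30 in wild type and rose (0.91 ± 0.20, adjusted p = 0.00114), while Cplx2 stood at 244, 241 and 194 FPKM at day 7 and 225, 239 and 231 at day 30 (0.043 ± 0.19, adjusted p = 0.864). The share of Cplx1 in the summed complexin FPKM was 39.7% ± 3.45 at day 7 and 54.8% ± 1.16 at day 30. Cplx3, known from retina and from deep cortical layers, was low at day 1, at 0.314, 0.974 and 0.811 FPKM, and reached 5.38, 6.82 and 5.99 at day 7. That was the largest day 7 rise of the SNARE group in wild type (2.07 ± 0.25, adjusted p = 6.6e-06). Nsf, the ATPase that takes spent SNARE complexes apart, rose at both steps, from 24.1, 29.6 and 21.5 to 109, 114 and 94 and then 169, 174 and 155 FPKM (2.04 ± 0.12, adjusted p = 1.63e-08, and 0.65 ± 0.12, adjusted p = 0.000348). On the log2(FPKM + 1) scale it had the largest day 7 rise of the group in knockout (1.93 ± 0.12, adjusted p = 2.73e-08). By ratio of mean FPKM there the low gene Cplx3 stood at 6.5 and Nsf at 3.89. The Nsf adaptor Napb rose at both steps in wild type as well (1.79 ± 0.15, adjusted p = 2.92e-07, and 0.43 ± 0.15, adjusted p = 0.0254).

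Scaffold and priming proteins of the active zone were 10 genes. By day 7, 7 rose in wild type and 8 in knockout, and from day 7 to day 30, 4 rose and 1 fell in wild type and 4 rose and 2 fell in knockout. The Munc13 proteins prime vesicles for fusion. Unc13a was at 15.6, 23.8 and 14.7 FPKM at day 1 and 46.2, 44.1 and 35.2 at day 7 in wild type (1.19 ± 0.17, adjusted p = 4.25e-05). Unc13b was called at neither step, at 3.04, 3.60 and 2.91 FPKM at day 1, 3.75, 3.68 and 2.90 at day 7 and 3.89, 3.81 and 3.63 at day 30. Its share of the summed Munc13 FPKM went from 14.8% ± 1.96 to 6.90% ± 0.0689 between days 1 and 7. Unc13c, best known from cerebellum, rose from 0.660, 1.42 and 0.530 to 4.92, 4.99 and 3.87 FPKM in wild type and had the largest day 7 rise of the active zone genes in both genotypes (1.60 ± 0.24, adjusted p = 6.5e-05, and in knockout 1.76 ± 0.24, adjusted p = 2.51e-05). In knockout it went from 5.40, 5.55 and 6.21 FPKM at day 7 to 1.60, 5.33 and 3.22 at day 30 (-0.71 ± 0.24, adjusted p = 0.03). Without the low first day 30 library the change was -0.38 with adjusted p = 0.182. The call was lost in 5 of 18 fits without 1 library and in 5 of 13 other alternatives, where adjusted p reached 0.0733.

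The RIM proteins tether calcium channels and vesicles to the active zone. Rims1 was at 6.28, 8.81 and 5.12 FPKM at day 1, 19.5, 18.7 and 15.8 at day 7 and 59.4, 48.8 and 51.1 at day 30 in wild type, and its second step was the largest rise of the group (1.51 ± 0.20, adjusted p = 1.58e-05). Rims2 rose at both steps (0.71 ± 0.20, adjusted p = 0.00782, and 0.75 ± 0.20, adjusted p = 0.00507). Rims3, a short form without most of the other domains, was at 21.3, 18.6 and 10.1 FPKM at day 1, 13.8, 12.3 and 17.8 at day 7 and 34.1, 39.2 and 35.2 at day 30 and rose at the second step (1.26 ± 0.29, adjusted p = 0.0019). Rims1 thus took 25.9% ± 5.49 of the summed RIM FPKM at day 1 and 53.1% ± 3.84 at day 30, and Rims3 took 61.7% ± 4.15 and 36.3% ± 3.41. Bassoon (Bsn) and Piccolo (Pclo) are giant scaffold proteins. Bsn was at 12.5, 11.8 and 10.1 FPKM at day 7 and 29.3, 27.7 and 23.1 at day 30 in wild type (1.15 ± 0.23, adjusted p = 0.000511), and Pclo at 14, 12.2 and 13.2 FPKM at day 7 and 15.8, 15.5 and 13 at day 30 (0.16 ± 0.21, adjusted p = 0.567). Erc2, a scaffold of the ELKS and CAST family, peaked at day 7. Its values were 36.4, 34 and 17.9 FPKM at day 1, 55.5, 53 and 52.3 at day 7 and 24.6, 26.2 and 22.3 at day 30, and it rose and then fell (0.91 ± 0.22, adjusted p = 0.00285, then -1.11 ± 0.22, adjusted p = 0.00055). Ppfia3, a liprin that organises the active zone, rose by day 7 (1.29 ± 0.14, adjusted p = 2.26e-06) and was not called after that (0.069 ± 0.14, adjusted p = 0.695, 95% interval -0.22 to 0.36).

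Rab3 is the small GTPase of the vesicle surface and rabphilin (Rph3a) its effector. Rab3a rose by day 7 (0.91 ± 0.16, adjusted p = 0.000306), with means of 116, 215 and 233 FPKM over the ages in wild type. Rab3c was not called at either step, at 21.4, 27.1 and 12.5 FPKM at day 1, 27.8, 26 and 36.4 at day 7 and 37.1, 34.4 and 31 at day 30. Rph3a was at 21.6, 20.1 and 9.14 FPKM at day 1, 35.2, 37.7 and 34.1 at day 7 and 94, 74.6 and 75.9 at day 30 and rose at both steps (1.11 ± 0.23, adjusted p = 0.000818, and 1.16 ± 0.23, adjusted p = 0.000509). It rose at both in knockout too (0.62 ± 0.23, adjusted p = 0.0346, and 0.90 ± 0.23, adjusted p = 0.00542), though the first of those calls was lost in 4 of 18 fits without 1 library, with adjusted p up to 0.132, and without the filter, with adjusted p = 0.0824.

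All 5 genes of vesicle endocytosis rose by day 7 in both genotypes. Dynamin 1 (Dnm1) pinches off the vesicle neck. It was at 30.8, 31.9 and 18.1 FPKM at day 1, 82.9, 89.7 and 70.0 at day 7 and 196, 206 and 183 at day 30 in wild type and rose at both steps (1.58 ± 0.18, adjusted p = 3.65e-06, and 1.26 ± 0.18, adjusted p = 2.24e-05). Amphiphysin (Amph), which brings dynamin to the neck, was at 16.3, 20.2 and 12 FPKM at day 1, 46.8, 49.3 and 45.6 at day 7 and 25.6, 26.4 and 24.6 at day 30 and fell at the second step (-0.86 ± 0.13, adjusted p = 4.4e-05) after its rise (1.52 ± 0.13, adjusted p = 2.92e-07). Snap91, the clathrin adaptor AP180, did likewise, at 35.4, 50.2 and 32.4 FPKM at day 1, 107, 108 and 102 at day 7 and 61.1, 60.9 and 58.3 at day 30 (1.43 ± 0.14, adjusted p = 1.13e-06, then -0.80 ± 0.14, adjusted p = 0.000198). In knockout both fell as well at the second step (-0.70 ± 0.13, adjusted p = 0.000494 for Amph, and -0.74 ± 0.14, adjusted p = 0.00062 for Snap91). The lipid phosphatase Synj1, which uncoats vesicles, and endophilin A1 (Sh3gl2) rose by day 7 (0.71 ± 0.17, adjusted p = 0.00248, and 0.98 ± 0.14, adjusted p = 2.88e-05) and were not called at the second step.

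Between genotypes no member was called at any age. At day 1, 0 of the 48 genes passed the adjusted threshold by limma, against 0.517% of all genes tested. At an unadjusted p under 0.05, 21 were higher and 1 was lower in knockout, where 12.5% of all genes were higher and 9.24% lower. The difference was above 0 for 39 of the 48 genes and for 52.7% of all genes, with medians of 0.285 and 0.0184. At day 7 none was called (0.00749% of all genes), and at an unadjusted p under 0.05 4 were higher and 0 lower (1.81% and 1.72% of all genes). The difference was above 0 for 38 genes (47.4% of all genes), with a median of 0.154 against -0.00898. At day 30 none was called (0.0225%), and at an unadjusted p under 0.05 1 gene was lower and 0 were higher (2.16% of all genes were higher and 1.43% lower). The difference was above 0 for 28 genes (55.3% of all genes), with a median of 0.0395 against 0.0192. For the mean of the 3 daily differences none was called (0.0974% of all genes, 0.0674% higher), and at an unadjusted p under 0.05 19 were higher and 0 lower (6.65% and 3.42%). Without wild type day 1 replicate 3 its median was 0.118, against 0.185 with all libraries. That difference was above 0 for 39 genes, against 52.4% of all genes. The genotype by day interaction called none (0.015%), and 4 of the 48 had an unadjusted p under 0.05, against 9.18% of all genes.

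**Figure D4:**
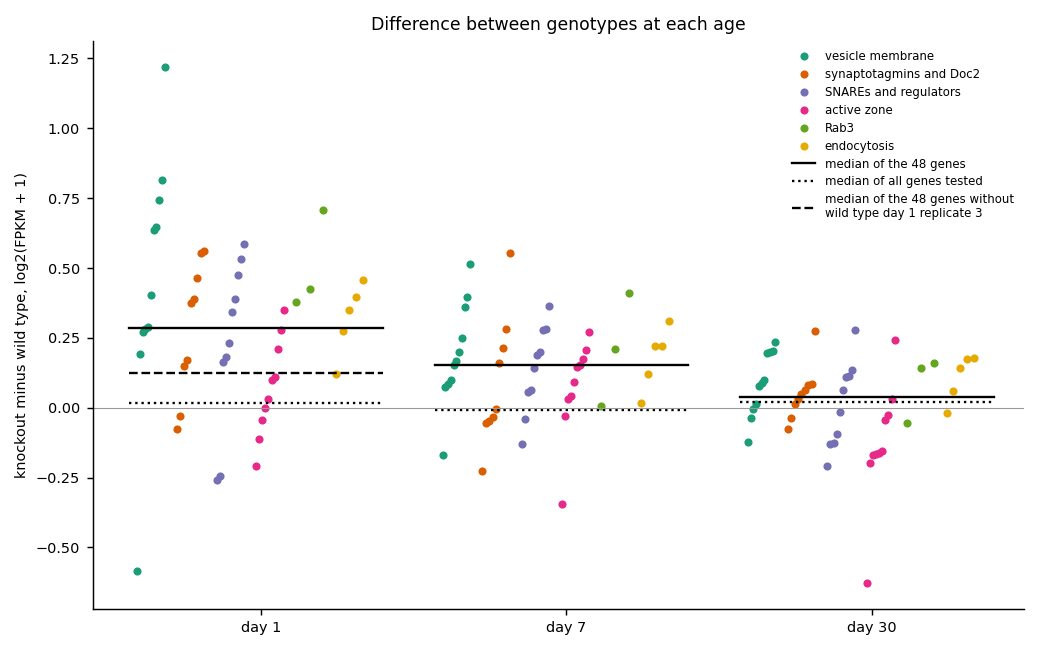
Knockout minus wild type on the log2(FPKM + 1) scale for each of the 48 genes at each age, coloured by role. Solid lines are the medians of the 48 genes (0.285, 0.154 and 0.0395), dotted lines those of all genes tested, and the dashed line at day 1 the median of the 48 without wild type day 1 replicate 3 (0.124).

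The median day 1 difference was 0.405 for the vesicle membrane genes, 0.373 for the synaptotagmins and Doc2, 0.286 for the SNARE group, 0.0669 for the active zone genes, 0.425 for the 3 genes of Rab3 and its effector and 0.351 for endocytosis. The difference between roles was not tested. Syngr3 had the smallest p. It was at 28.9, 41.8 and 26.6 FPKM in wild type and 43.6, 46.4 and 63.2 in knockout (0.65 ± 0.15, adjusted p = 0.0604, 95% interval 0.33 to 0.97). Syn2 was at 7.80, 11.3 and 5.17 FPKM in wild type and 11.8, 13.5 and 18.4 in knockout (0.81 ± 0.20, adjusted p = 0.0609), and for both genes every knockout library stood above every wild type library. Syn1 was at 33.9, 56.3 and 33.5 FPKM in wild type and 54, 60.6 and 75.5 in knockout (0.64 ± 0.17, adjusted p = 0.0708), where the second wild type library overlapped the knockout values. Synpr had the largest difference, at 5.34, 4.83 and 2.12 FPKM in wild type against 6.11, 7.84 and 22.2 in knockout (1.22 ± 0.34, adjusted p = 0.0802). The third knockout library was far above the other pair. The 8 interneuron markers summed to 265 FPKM in that library and to 126 and 134 in the other knockout libraries, with Sst at 147 against 42.9 and 52.9, and their part in the Synpr values was not tested. Syp, Syt1 and Napb (adjusted p = 0.0922, 0.0896 and 0.0874) were the other members with an adjusted p under 0.1 and no overlap, and were chosen after their values were seen. In all, 10 genes had no overlap at day 1 and were higher in knockout (8.92% of all genes), and none was lower (5.87%).

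**Figure D5:**
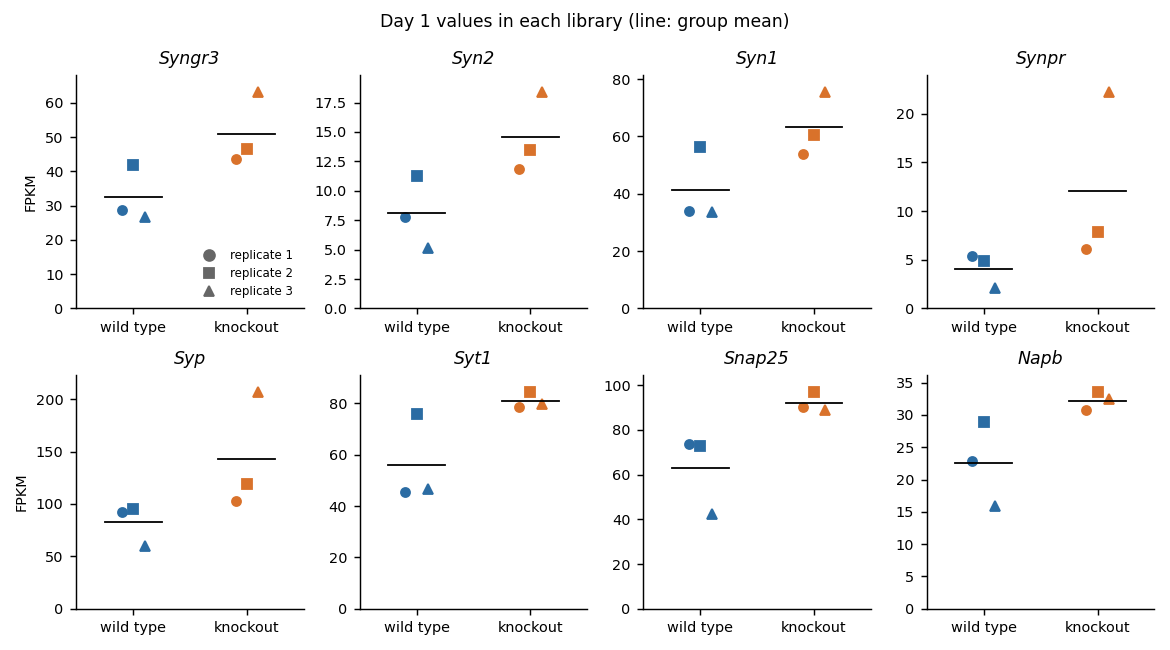
FPKM of 8 genes at day 1 in each library, with wild type in blue, knockout in orange, symbols for the replicate and a line at the group mean. Wild type replicate 3 (triangle) is the lowest of the 6 libraries in 7 of the 8 panels (Syt1 is the exception), and knockout replicate 3 is the highest in Syngr3, Syn2, Syn1, Synpr and Syp.

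The day 1 difference moved with single libraries. Without wild type day 1 replicate 3 the median difference was 0.124, 32 of the 48 genes were above 0, and none was called (1.67% of all genes). Without wild type day 1 replicate 2, the library with Xist and almost no Ddx3y, the median was 0.464, and 17 genes were called higher and Sypl lower, but 11.5% of all genes were then called too. With log2(Ddx3y FPKM + 1) as a covariate 12 were higher (7.39% of all genes). When the 3 libraries with both Xist and Ddx3y were left out together, a choice made after seeing the data, none was called and the median was 0.102. Marker levels differed between these groups as well. Pan-neuronal markers summed to 2120 to 3530 FPKM in wild type and 3300 to 3990 in knockout at day 1, all 10 had a difference above 0, and none was called. Of the 8 excitatory neuron markers 6 were above 0 and 2 below (median 0.0651), and 1 was called higher. Their sums overlapped, at 460 to 760 FPKM in wild type and 592 to 726 in knockout. All 6 astrocyte markers had a difference above 0 (median 0.634) and 1 was called. Of the 8 interneuron markers 7 were above 0 (median 0.365) and none was called, and all 5 endothelial markers were below 0 (median -0.384) with none called. Slc17a7, the vesicular glutamate transporter, had the largest difference of the 8 excitatory markers (1.23). It was at 10.2, 16.3 and 11.2 FPKM in wild type and 20.0, 28.5 and 48.3 in knockout. The part of these levels in the day 1 difference was not tested.

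At day 7 the smallest p values belonged to Sv2c, Sv2b and Syt12. Sv2c was at 3.90, 3.96 and 2.92 FPKM in wild type and 5.53, 5.61 and 5.43 in knockout (0.52 ± 0.16, adjusted p = 1.00). Sv2b was at 36.2, 35.7 and 32 FPKM in wild type and 43.3, 46 and 48.2 in knockout (0.40 ± 0.17, adjusted p = 1.00), and Syt12 at 2.01, 2.23 and 1.88 FPKM in wild type and 2.72, 2.80 and 2.57 in knockout (0.28 ± 0.12, adjusted p = 1.00). None of the 3 genes overlapped between genotypes. With weights for each library all 3 were called (adjusted p = 0.00371, 0.0192 and 0.0198), where 10.5% of all genes were. Without wild type day 7 replicate 3 the median difference of the 48 genes was 0.0868, with 35 above 0 and none called. In all, 13 members were wholly higher in knockout at day 7 and 2 wholly lower, against 9.74% and 10.9% of all genes. Same-numbered libraries deviated together at day 7, with correlations of 0.333, 0.337 and 0.53. At day 1 the correlations were 0.0252, 0.131 and 0.0976, and at day 30 all were below 0 (-0.336, -0.0414 and -0.0576). A fit of the 6 day 7 libraries alone with the replicate number as a block, chosen after seeing the data, called Syn2, Sv2b, Sv2c, Syt2 and Rab3c higher (adjusted p = 0.0286 to 0.0433), against 3.75% of all genes. The 6 myelin markers summed to 30.2 to 52.7 FPKM in wild type and 59.1 to 85 in knockout at that age, and the 10 pan-neuronal markers to 3920 to 4530 and 3340 to 3770. All 6 myelin markers had a difference above 0. Of the 10 pan-neuronal markers 4 were above 0 and 6 below (median -0.173), so their sum does not describe the list. No marker of either list was called. Trace RNA of other tissues differed too. At day 7 the 7 salivary gland markers summed to 8.07 to 10.6 FPKM in wild type and 0.527 to 0.832 in knockout. The 4 lung markers summed to 41.2 to 44.6 and 23.2 to 26.3 FPKM. The part of all these levels in the day 7 differences was not tested.

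At day 30 the first 3 genes by p were Rims3, Doc2a and Sv2c. Rims3 was at 34.1, 39.2 and 35.2 FPKM in wild type and 39.6, 15.8 and 19.3 in knockout (-0.63 ± 0.29, adjusted p = 1.00), and the groups overlapped through the first knockout library. Doc2a was at 8.32, 7.50 and 8.17 FPKM in wild type and 8.43, 10.3 and 11.1 in knockout (0.28 ± 0.17, adjusted p = 1.00), and Sv2c at 2.21, 2.19 and 2.42 FPKM in wild type and 2.45, 3.38 and 2.78 in knockout (0.24 ± 0.16, adjusted p = 1.00). Neither of these 2 genes overlapped between genotypes. With weights for each library Rims3 and Doc2a were called (adjusted p = 0.00221 and 0.021), where 13% of all genes were. Without knockout day 30 replicate 1 the median difference of the 48 genes was 0.078. There were 8 members wholly higher and 1 wholly lower in knockout, against 9.35% and 5.51% of all genes. For the mean of the 3 days the smallest p values were those of Sv2c (0.34 ± 0.09, adjusted p = 0.225), Nsf (0.26 ± 0.07, adjusted p = 0.225) and Syn2 (0.39 ± 0.11, adjusted p = 0.282), each with a difference above 0 at days 1 and 7, and Syn2 with -0.0039 at day 30. For the interaction they were those of Syngr3, Syn2 and Synpr (adjusted p = 0.527, 0.531 and 0.533).

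Over these 48 genes the knockout libraries differed among themselves more than wild type at day 30. The same spread over all genes tested was not computed. Total FPKM was 371182, 313919 and 348136 in those knockout libraries and 325981 to 344487 in wild type, and the values were not rescaled for it. The ratio of the highest to the lowest library had a median over the 48 genes of 1.31 in knockout and 1.12 in wild type, and it was above 2 for 5 genes in knockout (Doc2b, Vamp1, Snap25, Unc13c and Rims3) and for none in wild type. Snap25 was at 1207, 544 and 864 FPKM in the 3 knockout libraries. Vamp1 was at 71.5, 31.9 and 52.2 FPKM and Syt2 at 8.77, 4.98 and 6.76. In all 3 genes the first library was the highest and the second the lowest. Rims1 ran the other way, at 33.3, 65.6 and 47.3 FPKM, as did Rab3c at 26.2, 51.7 and 39.4 and Bsn at 18.2, 29.5 and 22.6. The interneuron marker Pvalb was at 108, 36.9 and 77.1 FPKM in the same libraries and at 45.1, 55.7 and 62.8 in wild type, and Gad1 at 72.1, 42.6 and 63.1. All 8 interneuron markers, these included, summed to 431, 264 and 387 FPKM in the knockout libraries. Other lists differed there as well. Astrocyte markers summed to 522, 827 and 653 FPKM, excitatory neuron markers to 1280, 1410 and 1280 and blood markers to 769, 454 and 2010. The genes named here were chosen after their values were seen, and the part of the marker levels was not tested. At day 1 the median ratio was 1.73 in wild type, with the library of other tissues included, and 1.41 in knockout. At day 7 it was 1.24 in wild type and 1.15 in knockout, so the order of the genotypes differed between ages.

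A further list of 58 genes of release and of the vesicle cycle was counted beside the 48, of which 57 were in the table and 55 passed the filter. By day 7, 38 rose and 4 fell in wild type, against 20.9% and 28% of all genes, with a median of 0.829 against -0.0997. In knockout 33 rose and 4 fell, against 19.3% and 29.4%, with a median of 0.649 against -0.0813. From day 7 to day 30, 15 of the 55 rose and 15 fell in wild type, against 20.8% and 29.6% of all genes. The median was -0.0608 against -0.0818. In knockout 13 rose and 15 fell, against 15.9% and 22%, with a median of 0.0132 against -0.0545. Between genotypes none was called at days 1, 7 and 30, against 0.517%, 0.00749% and 0.0225% of all genes. In wild type the largest rises by day 7 were those of Syt13, a synaptotagmin (2.43), and Atp6v1g2, a subunit of the proton pump that acidifies vesicles (2.31), and the largest falls those of Ppfia1, a liprin (-0.76), and Syt6 (-0.71). From day 7 to day 30 Pacsin1, which binds dynamin, rose by 1.69 and Syt13 by 1.51, and Erc1, the relative of Erc2, fell by 2.01 and Syt6 by 1.84. In knockout the largest day 7 rises were those of Cadps2, a priming factor (2.47), and Syt13 (2.10), and the largest falls those of Syt6 (-0.95) and Sh3gl3, an endophilin (-0.70). At the second step there Syt13 rose by 1.34 and Pacsin1 by 1.31, while Erc1 fell by 1.93 and Syt6 by 1.54.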

How the data were processed

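RNA of cerebral cortex was sequenced in 18 libraries, 3 for each of 6 groups named by the labels' titles. The authors deposited 1 table of FPKM values. The submitters' processing notes name Bowtie2, RSEM 1.3.1, DESeq2 1.4.5 and build GRCm39, and the role and order of each and the strand setting were not known here. No read counts were used, the depth is unknown, and no count test was run.

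From the FPKM the values log2(FPKM + 1) were computed. A filter kept 13347 of 28852 genes, those that reached FPKM 1 in 3 or more libraries. A linear model with 6 group means over all 18 libraries was fitted with limma 3.58.1 in R 4.3.3, with a trend in the variance. The code was run on simulated data with independent noise for each gene. Those data held no library with RNA of other tissues and no shifts shared between genes. They do not show how the fit behaves with such libraries. P-values were adjusted by Benjamini-Hochberg over all genes tested, with a threshold of 0.05. The pseudocount understates changes of low genes, and rankings by size of change were made on that scale. All libraries carry the same batch date, but trace RNA of other tissues differed between genotypes at day 7. The sources used here do not say whether the libraries were handled together. The 48 genes, the further lists and the alternatives were chosen with earlier results of these data known. The rule for named genes took the 3 members with the smallest p in each comparison between genotypes, the largest called rise and fall of each role at each step of age, and members called in opposite directions at the steps. Members outside the rule are given so that all 48 are accounted for. An exact permutation test of 3 against 3 cannot go below p = 0.1. Promoter windows were taken from RefSeq on GRCm38.p6.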

Additional observations from a re-analysis of the deposited data

How the results depend on the processing

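Alternatives were pseudocounts of 0.1 and 0.01, no filter, a filter at FPKM 5, rescaling to TPM, median ratio scaling, quantile normalization, a fit of the compared groups alone, a replicate block, a Ddx3y covariate, array weights, leaving out each library, and 3 choices made after seeing the data. Over 72 pairs of a named gene and a comparison, no direction was reversed, though pairs of the interaction have no direction to reverse. For 11 counts of members called only the size was compared. The counts of members called moved by over 1.5 times only as follows, and the causes were not tested. With the Ddx3y covariate 12 members were called between genotypes at day 1 and 2 for the mean of the days (Syn1 and Syngr3). With array weights 9 were called at day 7 (Syn2, Sv2b, Sv2c, Syt2, Syt12, Nsf, Rab3c, Dnm1 and Sh3gl2), 8 at day 30 (6 higher, 2 lower, the latter Unc13b and Rims3), 3 for the mean (Syn2, Sh3gl2 and Snap91), 40 at wild type day 30 against day 7 (27 higher and 13 lower), 2 for the change of the genotype difference from day 7 to day 30 and 1 for the interaction. Of all genes, 10.5%, 13%, 1.68%, 74.7%, 15.4% and 8.69% were then called. Leaving out 1 library at a time gave 0 to 18 at day 1 and 0 to 2 for the mean, both highest without wild type day 1 replicate 2, and 0 at days 7 and 30 and for the interaction and both changes of the difference. It gave 35 to 41 and 22 to 29 for the wild type steps and 37 to 42 and 19 to 28 for the knockout steps.

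The replicate block over all 18 libraries gave 38 and 29 members for the wild type steps, 41 and 25 for the knockout steps and 0 between genotypes. Deviations of same-numbered libraries correlated at 0.0252 to 0.131 at day 1, 0.333 to 0.53 at day 7 and -0.336 to -0.0414 at day 30, so the numbers do not pair the samples throughout. The block within a day, added after seeing the data, called 5 members at day 7 and 0 at days 1 and 30.

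Only the 72 pairs of a named gene and a comparison were followed through the alternatives. Among them, calls lost under other alternatives than leaving out a library were those of Syt4, Unc13c, Synpr, Rph3a and Doc2b in knockout. Those of Syngr3 were lost in both genotypes, and the values are given beside each gene. Other calls, such as those of Syn1, Napb and Syt7 at the second step in wild type, were not followed. Synpr was lost with both smaller pseudocounts, no filter, median ratio scaling and quantile normalization. Over the alternatives the median change of all genes ran from -0.164 to 0.0111 at wild type day 30 against day 7. Depth is unknown, so counting error could not be set beside the spread between libraries.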
